A study of Mus musculus with 15 samples.

Results

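The genes described are 10 negative feedback regulators of ERK signalling, Dusp1, Dusp4, Dusp5, Dusp6, Spry1, Spry2, Spry4, Spred1, Spred2 and Errfi1. They were taken by name from the table of 37310 Ensembl genes of a mouse hippocampal RNA-seq study, and all 10 were among the 18008 genes with enough reads to be tested. In the hippocampus after fear conditioning or after memory retrieval, the nuclear phosphatases Dusp1 and Dusp5 and the EGF receptor inhibitor Errfi1 were higher than in untrained mice. Of these genes, Dusp1 alone was called in both comparisons under every setting tried. Dusp6, Spry1 and Spry4 passed the test in 1 of these comparisons each, with smaller rises. Dusp4, Spred1 and Spry2 passed it in neither. Spred2 was slightly lower after conditioning, a call that most of the other settings tried did not make.

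The samples were hippocampi of C57BL/6J wild-type males, 2 months of age, with both hippocampi of 1 mouse in each library per the study's methods. The methods and the series text differ on how many mice each group had and over how many days, so n counts libraries. FC mice were handled, placed in a chamber and given a single shock to the feet (1.5 mA, 2 s), with dissection 30 min after this session. RT mice went through the same training, returned for a retrieval test of 5 min at 24 h, and were dissected 30 min after it. CC mice were handled but not trained, and their dissection fell at the same time of day, so CC lacked the chamber, the shock and the test together. Each group had 5 libraries, numbered 3, 5, 6, 7 and 8, and values per library are listed in that order below. In such bulk tissue, fewer cells of a type and less RNA per cell cannot be told apart.

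Growth factor receptors and synaptic calcium entry both act through Ras, RAF and MEK to phosphorylate ERK, and ERK activity in the hippocampus is known to be needed for contextual fear memory. Active ERK also induces genes whose products shut the same pathway down. Dual-specificity phosphatases remove the activating phosphates from ERK and related kinases, Sprouty and Spred proteins act between the receptor and RAF, and Errfi1 (also called Mig-6) blocks the kinase domain of the EGF receptor.

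Total reads counted to genes per library ranged from 35731428 to 62555543, with a median of 52154887. FC3 and RT3 stood apart from the rest: the interquartile range of their relative log expression, which is the log count less the gene's median over libraries, was 0.825 in FC3 and 0.435 in RT3, against at most 0.117 in the other 13 libraries. Markers of the choroid plexus, the epithelium that lies against the hippocampus, moved with the groups. The mean log2 deviation of the 12 markers had ranges of -0.192 to 2.72 in FC, -0.737 to 1.12 in RT and -0.939 to -0.735 in CC, and the ranges of their summed counts were 13960 to 83300 in FC, 11120 to 29600 in RT and 10580 to 11760 in CC, with no marker at 0. Enpp2, the gene of this list with the most reads, had a log2 fold change of 0.72 in FC over CC and 0.22 in RT over CC (edgeR FDR of 1.25e-04 and 0.643), called in FC alone. Ttr, chosen after its values were seen, was 3.49 log2 units higher in FC than in CC and 1.83 higher in RT than in CC (edgeR FDR of 4.51e-17 and 8.49e-05). Markers of hippocampal excitatory neurons were present in all groups. Arc and Fos are activity-induced genes that check the CC labels against those of FC and RT. They were 1.48 and 2.36 log2 units higher in FC than in CC. In RT they were 1.37 and 2.05 higher than in CC, and the largest edgeR FDR of both comparisons was 1.395e-27. Neither was called in FC against RT (edgeR FDR of 0.821 and 0.225), so they do not check FC labels against RT labels.

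The first question was which of the feedback regulators differed from CC after conditioning and after retrieval. The test was a likelihood ratio test in edgeR on all 15 libraries, with 5 factors of unwanted variation estimated by RUVs, and a gene was called at a false discovery rate (FDR) under 0.01 over all tested genes. In FC against CC, 4 of the 10 regulators were called higher (Dusp1, Dusp5, Dusp6 and Errfi1), where 1.32% of all tested genes were called higher. In the same comparison 1 regulator, Spred2, was called lower, where 0.922% of all tested genes were. In RT against CC, 5 of the 10 were called higher (Dusp1, Dusp5, Spry1, Spry4 and Errfi1), where 0.866% of all tested genes were. None was called lower, where 0.144% were, although Spry2 and Spred2 had negative estimates. In each comparison 8 of the 10 regulators, in either direction, had an unadjusted edgeR p under 0.05. By p value the last of these was number 1428 of all tested genes in FC against CC (Spry4). In RT against CC it was number 1539 (Spry2). The median log2 fold change of the 10 regulators was 0.17 in FC against CC and 0.24 in RT against CC, with medians of -0.01 and -0.001 over all tested genes. These comparisons share the CC libraries, so they are not independent of each other.

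**Figure D1:**
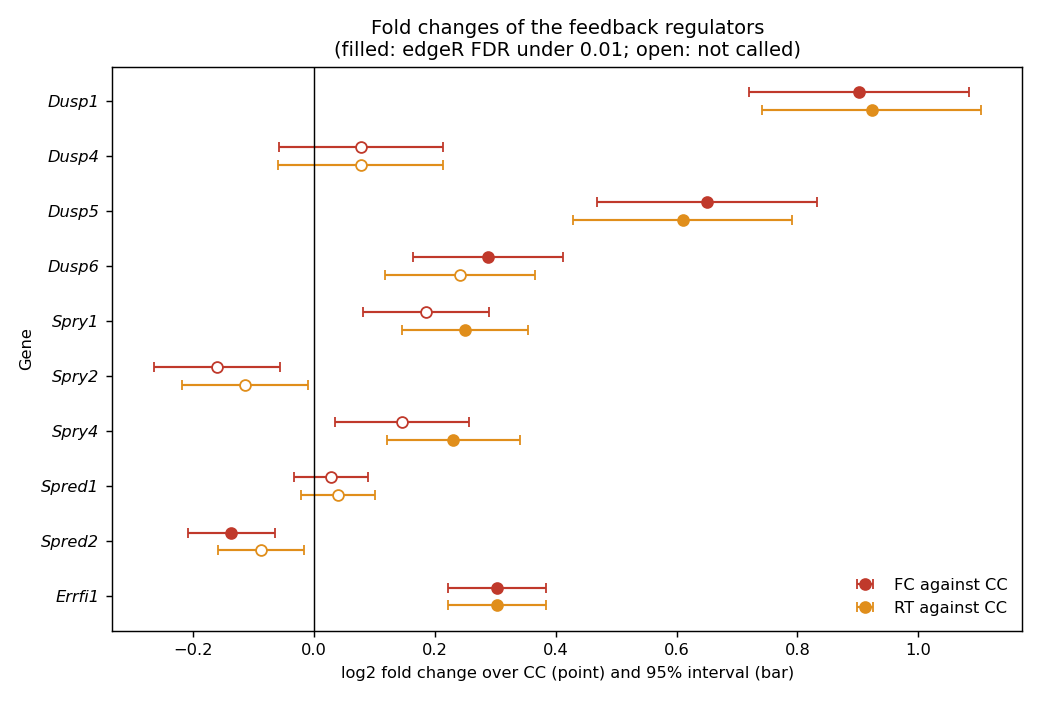
The log2 fold change of each of the 10 regulators over CC (horizontal axis) is shown for FC (red, upper) and RT (orange, lower) as a point with its 95% interval, filled where the edgeR FDR is under 0.01. Dusp1 stands near 0.9 and Dusp5 near 0.6 in both comparisons, Errfi1 at 0.30 in both, and the open points of Dusp4 and Spred1 have intervals that include 0.

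Because Dusp1, Dusp5 and Errfi1 were called in both comparisons, their promoters are shown, as RefSeq sequence of build GRCm38.p6 from 200 bases before the start of transcription up to it, 5′ to 3′ on the strand of the gene. RefSeq windows were at hand for 8 of the 10 regulators. Capitals mark the cyclic AMP response element TGACGTCA, which binds CREB, its shorter form TGACG, and the CArG box, which binds serum response factor. Matches on either strand are marked, so TGACG on the other strand reads CGTCA here, as in Dusp5. The Dusp1 stretch is chr17:26508473-26508672 on the minus strand, the Dusp5 stretch chr19:53528945-53529144 on the plus strand, and the Errfi1 stretch chr4:150854870-150855069 on the plus strand, from 1 of its 2 RefSeq starts. The stretch before the other Errfi1 start holds none of the marked sequences and is not shown.
Dusp1: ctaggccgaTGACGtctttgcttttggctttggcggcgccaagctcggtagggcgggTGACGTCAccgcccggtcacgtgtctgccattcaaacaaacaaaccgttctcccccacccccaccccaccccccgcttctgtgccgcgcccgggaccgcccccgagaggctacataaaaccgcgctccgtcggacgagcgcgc
Dusp5: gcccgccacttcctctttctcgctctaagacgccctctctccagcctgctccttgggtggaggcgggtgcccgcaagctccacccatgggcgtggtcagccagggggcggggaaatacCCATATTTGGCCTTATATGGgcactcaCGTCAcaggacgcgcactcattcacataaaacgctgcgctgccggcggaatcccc
Errfi1: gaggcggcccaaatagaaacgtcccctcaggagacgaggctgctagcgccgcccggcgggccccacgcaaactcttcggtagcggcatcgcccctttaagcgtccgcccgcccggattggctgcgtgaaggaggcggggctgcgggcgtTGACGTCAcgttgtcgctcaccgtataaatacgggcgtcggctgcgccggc

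The full element TGACGTCA begins 143 bases before the start in Dusp1 and 51 bases before the start of Errfi1 that is shown. Over all 32851 promoter windows of 300 bases (250 before and 50 after the start), 1.79% hold this sequence, searched on both strands. Dusp5 carries a pair of adjoining CArG boxes, which begin 82 and 72 bases before its start, and 1.63% of all windows hold at least 1. The shorter form TGACG, which is contained in the full element, was found in the windows of Dusp1, Dusp5, Errfi1 and Spred2, and in 20.8% of all windows. The AP-1 sequence TGAGTCA was in no window of the regulators and in 5.2% of all windows. The EGR sequence GCGTGGG was in the Errfi1 window alone among the regulators and in 5.04% of all windows, and the ETS sequence CCGGAA was in the Spry2 window alone, after the start, and in 14.9% of all windows. These motifs were chosen with the expression values known, and a match describes the sequence, not a bound factor.

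The phosphatases are described first, with read counts scaled to the upper quartile of each library. Dusp1 (mm9 chromosome 17, 26642535 to 26645464, minus strand) encodes a nuclear phosphatase of p38, JNK and ERK. Its scaled counts were 1128, 1458.5, 939, 1322 and 1319.7 in FC, 1252, 1357, 1299.8, 1213 and 1216.5 in RT and 715, 655, 678, 648 and 640.2 in CC. Every FC library and every RT library lay above every CC library. Group means were 1233 ± 202.4 in FC, 1267 ± 60.9 in RT and 667 ± 30.4 in CC (SD, n = 5 each). The log2 fold change was 0.90 (SE 0.09, edgeR FDR 2.89e-19) for FC against CC and 0.92 (SE 0.09, edgeR FDR 2.77e-20) for RT against CC, or 1.87-fold and 1.90-fold. By p value, Dusp1 was number 16 of all tested genes in FC against CC and number 13 in RT against CC. It was called under all 12 other settings and without any single library in both comparisons. Without FC5 and FC8, which had the highest choroid plexus marker levels, the FC against CC estimate was 0.69.

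Dusp5 (chromosome 19, 53603599 to 53616921, plus strand), a nuclear phosphatase selective for ERK, was the other regulator whose groups did not overlap. Its scaled counts were 2748, 1553.5, 1488, 1542 and 1494 in FC, 2021, 1629.5, 1518, 1560.5 and 1395 in RT and 1191, 913, 891, 807 and 1238 in CC. FC3 and RT3 were the highest libraries of their groups, yet the lowest library of FC and of RT still exceeded the highest of CC. Such full separation upward held for 2 of the 10 regulators in each comparison, where 0.561% of all tested genes showed it for FC over CC and 0.9% for RT over CC. Its log2 fold change was 0.65 (SE 0.09, edgeR FDR 9.97e-10) for FC against CC and 0.61 (SE 0.09, edgeR FDR 2.11e-08) for RT against CC. Without FC3 and RT3 the estimates were 0.60 and 0.60 and both were called, and the means of the remaining 4 libraries were 1519 ± 33.2 in FC and 1526 ± 98.5 in RT, against 1008 ± 193.1 in CC (SD, n = 5). With upper-quartile scaling alone on all libraries, neither call was made (edgeR FDR 0.0122 and 0.175).

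Dusp6 (chromosome 10, 98725865 to 98730122, plus strand) encodes the cytoplasmic phosphatase of ERK. Its scaled counts were 2446, 3693, 3073, 3769 and 3273 in FC, 2758, 3339, 3219.7, 3215 and 3432.5 in RT and 2892, 2558, 2660.1, 3016 and 2742 in CC. In FC and in RT 4 of the 5 libraries lay above the highest CC library, and the exceptions, FC3 and RT3, lay below the CC mean. On the log2 scale Dusp6 was 0.29 higher in FC than in CC (SE 0.06, edgeR FDR 5.26e-04), which was called, and 0.24 higher in RT than in CC (SE 0.06, edgeR FDR 0.0129), which was not. The RT estimate ranged from 0.20 to 0.25 over the other settings, 4 of 12 of which called it.

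Dusp4 (chromosome 8, 35870351 to 35882948, plus strand), a nuclear phosphatase of ERK and JNK, had the widest spread of the phosphatases in FC and in RT, with coefficients of variation of 39.3% and 16.8%, against 10.2% in CC. Its scaled counts were 356, 1237, 1273, 1429 and 1056 in FC, 768, 1166, 1095, 1233.5 and 1121.5 in RT and 1262, 1084, 978, 1011 and 1124 in CC. The low values were those of FC3 and RT3, and the groups otherwise overlapped. Its log2 fold change was 0.08 in both comparisons, with 95% intervals of -0.06 to 0.21 (edgeR FDR 0.648 for FC against CC and 0.766 for RT against CC). Over the alternatives the estimate took either sign, from -0.14 to 0.19 in FC against CC.

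**Figure D2:**
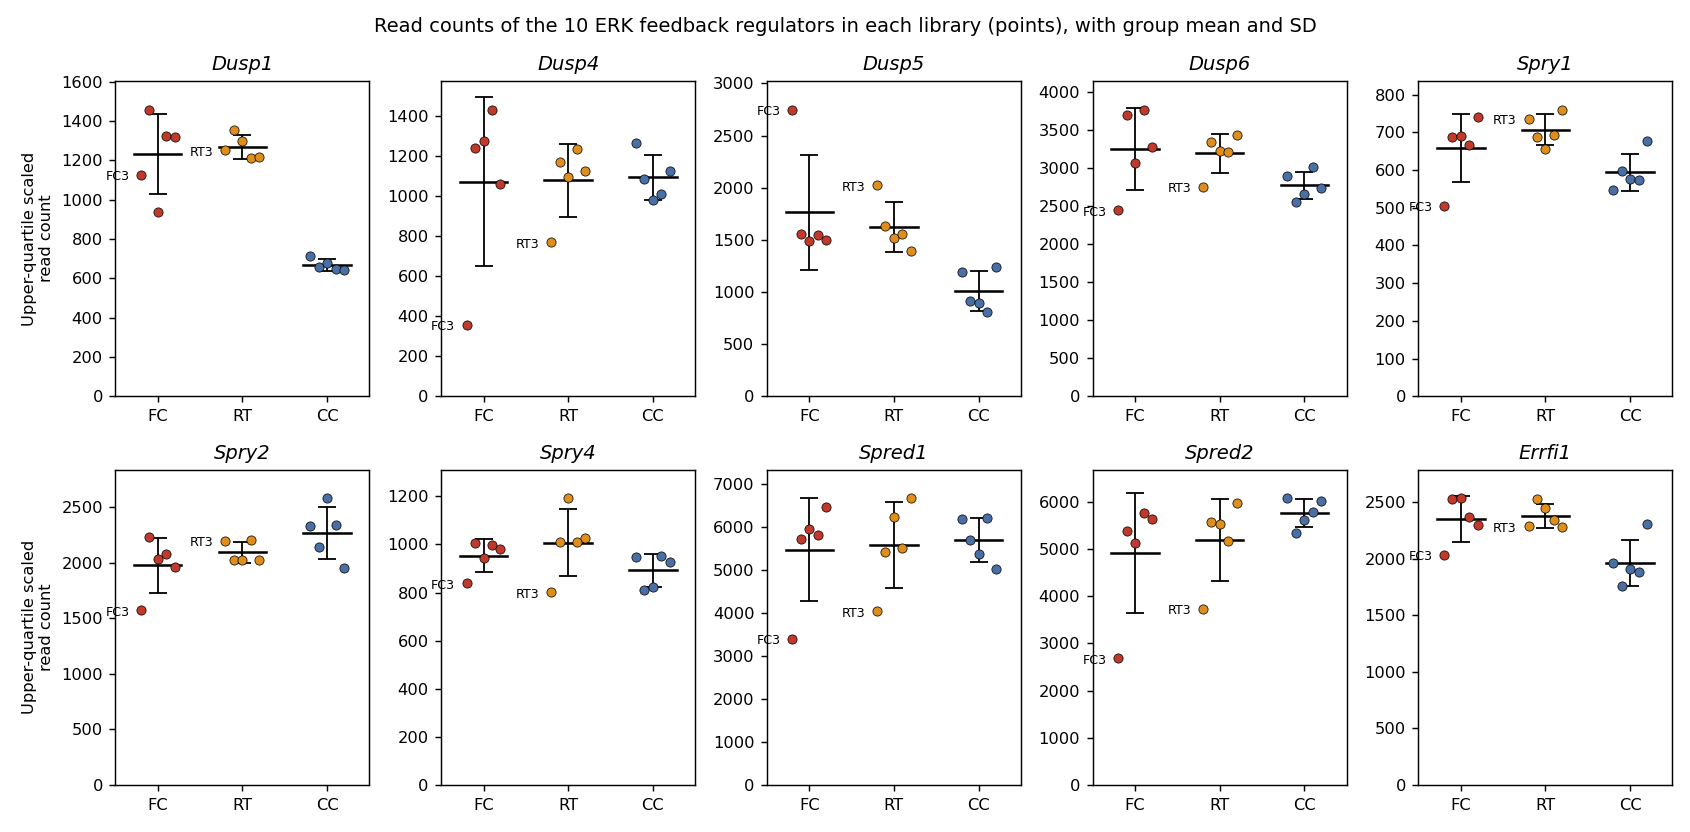
Upper-quartile scaled read counts (vertical axes, from 0) of each regulator in the 5 FC, 5 RT and 5 CC libraries (points, number 3 to 8 from left to right), with group means (lines) and SD (bars). Dusp1 and Dusp5 show FC and RT libraries that all lie above the CC libraries, and the points named FC3 and RT3 are the lowest of their groups for Dusp4, Dusp6, Spry4, Spred1 and Spred2 and the highest for Dusp5.

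Errfi1 (chromosome 4, 150228028 to 150243001, plus strand), the inhibitor of the EGF receptor, changed by less than Dusp1 and Dusp5, and by a similar amount in both comparisons. Its scaled counts were 2039, 2527, 2536, 2371 and 2297.5 in FC, 2290.5, 2528, 2451, 2344.5 and 2287 in RT and 1962, 1757, 1914, 1887 and 2305 in CC. All 5 FC and all 5 RT libraries exceeded the CC mean of 1965 ± 204.9 (SD, n = 5), but CC8 overlapped with both groups. In log2 units the change was 0.30 (SE 0.04) in FC and in RT over CC, with an edgeR FDR of 1.34e-10 and 1.52e-10. With upper-quartile scaling alone the estimates were 0.26 and 0.28 and were not called. Without FC3 and RT3, upper-quartile scaling alone gave 0.31 (edgeR FDR 0.00379) in FC against CC and 0.29 (edgeR FDR 0.0144) in RT against CC. The gene 1700045H11Rik lies on the other strand at this locus, with 0 exonic bases in common, and whether reads were counted by strand is not given in the sources used here.

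The Sprouty genes encode membrane-bound inhibitors that act upstream of Ras and RAF. Spry1 (chromosome 3, 37538869 to 37543520, plus strand) had 506, 687, 690.2, 667 and 741 scaled counts in FC, 735, 688, 656, 694 and 759.9 in RT and 546, 596, 576, 573 and 676 in CC. All RT libraries lay above the CC mean and 4 of the 5 lay above the highest CC library, whereas FC3 was below every CC library. The log2 fold change was 0.19 (SE 0.05, edgeR FDR 0.0172) in FC over CC and 0.25 (SE 0.05, edgeR FDR 4.63e-04) in RT over CC, called in RT alone. Without FC3 and RT3 both were called, at 0.24 (edgeR FDR 4.38e-04) and 0.23 (edgeR FDR 0.00169). The call in RT over CC was made under 6 of 12 other settings and without any 1 of the 15 libraries, and was lost with DESeq2 (FDR 0.0292), the edgeR quasi-likelihood test (FDR 0.0269), 3 RUVs factors (edgeR FDR 0.0136) and the fits on upper-quartile factors. FC over CC was called under 2 of the 12 settings and without 4 of the 15 libraries (CC8, FC3, RT3 or RT6).

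Spry4 (chromosome 18, 38745922 to 38760922, minus strand) had 838, 1005, 944, 999 and 980.4 scaled counts in FC, 802, 1009, 1192, 1012 and 1028 in RT and 947, 812, 822, 952 and 928 in CC. All FC and RT libraries other than FC3, RT3 and FC6 lay above every CC library. Its estimated log2 fold change was 0.14 (SE 0.06, edgeR FDR 0.132) in FC over CC and 0.23 (SE 0.06, edgeR FDR 0.00479) in RT over CC, called in RT alone. This call was made under 4 of 12 other settings and without 10 of 15 single libraries. It was lost without CC5, CC6, CC7, RT6 or RT7, with RT6 the highest library and an estimate of 0.17 without it.

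Spry2 (chromosome 14, 106291166 to 106296036, minus strand), the Sprouty gene with the most reads per length in CC, had its estimates on the other side of 0. Its scaled counts were 1574, 2231, 2031, 2076 and 1967 in FC, 2200.5, 2026, 2028, 2202 and 2025 in RT and 2335, 2139, 2580.3, 2342 and 1956.5 in CC. All 5 libraries of FC and of RT lay below the CC mean of 2271 ± 235.2 (SD, n = 5), and all but FC3 fell within the range of CC. On the log2 scale the change was -0.16 (SE 0.05, edgeR FDR 0.0539) in FC against CC and -0.11 (SE 0.05, edgeR FDR 0.379) in RT against CC. The FC against CC difference was called without CC5 (-0.20, edgeR FDR 1.19e-04) and without CC8 (-0.21, edgeR FDR 0.00119), and under none of the other 12 settings.

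The Spred genes encode relatives of Sprouty that bring neurofibromin, which inactivates Ras, to the membrane. Spred1 (chromosome 2, 116947110 to 117008015, plus strand) had 3398, 5718, 5963, 5825 and 6473 scaled counts in FC, 4038, 5431.5, 6249, 5507 and 6672 in RT and 6193, 5707, 5373, 6206 and 5020.2 in CC. Spred2 (chromosome 11, 19824378 to 19924029, plus strand) had 2682, 5387, 5136, 5766.5 and 5630.1 scaled counts in FC, 3729.6, 5573, 5527, 5170.2 and 5987 in RT and 6077, 5336, 5611, 5790.4 and 6027 in CC. For both genes FC3 and RT3 were the lowest libraries, and the remaining libraries of the 3 groups overlapped. The Spred1 log2 fold change was 0.03 in FC and 0.04 in RT over CC (edgeR FDR 0.748 and 0.72), with 95% intervals of -0.03 to 0.09 and -0.02 to 0.10. The Spred2 log2 fold change was -0.14 (SE 0.04, edgeR FDR 0.00809) in FC against CC, called lower, and -0.09 (SE 0.04, edgeR FDR 0.277) in RT against CC. The Spred2 call was made under 2 of 12 other settings and without 6 of 15 single libraries, and without FC3 and RT3 the estimate was -0.09 (edgeR FDR 0.242).

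**Figure D3:**
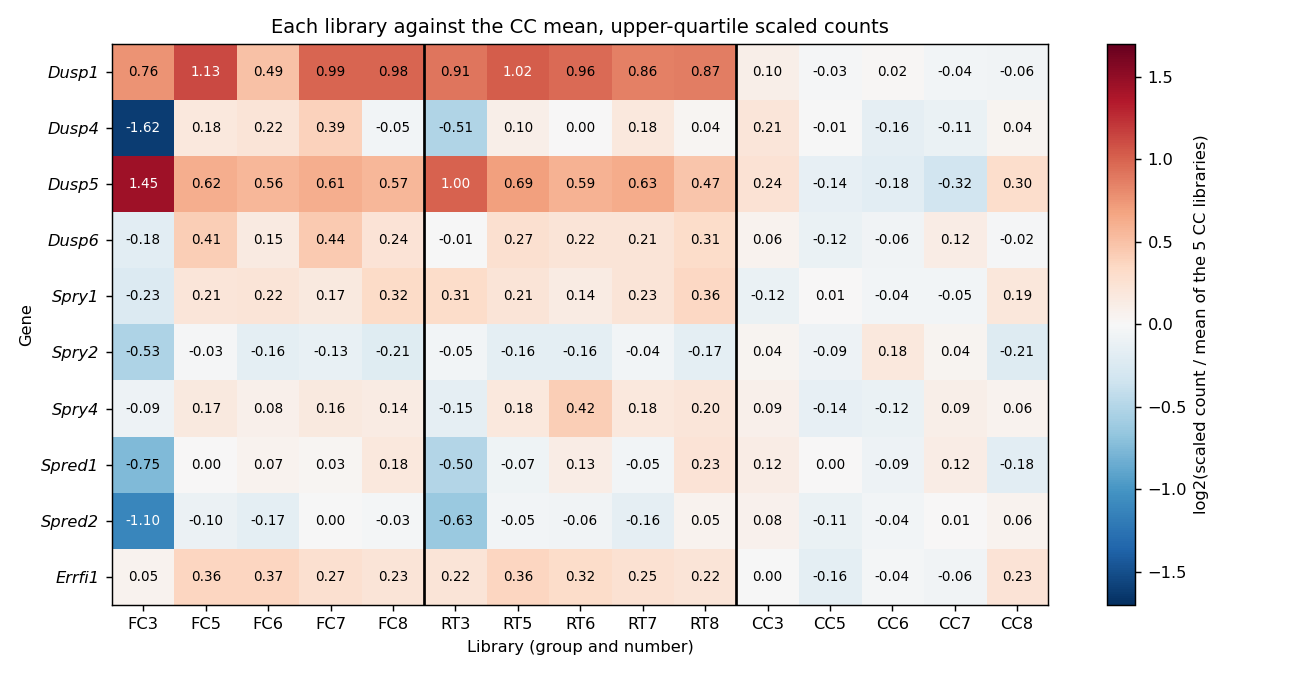
Each cell gives the log2 ratio of a library's upper-quartile scaled count to the mean of the 5 CC libraries (colour scale, red above and blue below), with regulators in rows and FC, RT and CC libraries in columns. The Dusp1 row is above 0.4 in all FC and RT columns, and the FC3 column runs from -1.62 for Dusp4 to 1.45 for Dusp5 and the RT3 column from -0.63 for Spred2 to 1.00 for Dusp5.

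The spread across regulators within a library shows how FC3 and RT3 differ from the rest. In FC3 the log2 ratio to the CC mean ran from -1.62 (Dusp4) to 1.45 (Dusp5), and in RT3 from -0.63 (Spred2) to 1.00 (Dusp5). In the other 4 FC libraries the lowest ratio was -0.21 (Spry2 in FC8) and the highest 1.13 (Dusp1 in FC5), and in the other 4 RT libraries the lowest was -0.17 (Spry2 in RT8) and the highest 1.02 (Dusp1 in RT5). In FC3 and RT3 the oligodendrocyte marker score was also the highest of the 15 libraries, at 0.558 and 0.418, as was the microglial score, at 0.439 and 0.328. The excitatory neuron score was the lowest, at -0.348 and -0.254. Each score is a mean over its list, and the microglial markers did not all move the same way. Scaled C1qa counts reached 5874 in FC libraries, against at most 2088 in CC. Scaled P2ry12 counts fell to 508.7 in FC libraries, against at least 1559 in CC. The part of cell composition in the low counts of Dusp4, Spred1 and Spred2 was not tested. Dusp1 in FC3 and RT3, at 1128 and 1252, stayed within the range of the other libraries of each group.

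The second question was whether the regulators differed between conditioning and retrieval. In FC against RT none of the 10 was called in either direction, where 0.0777% of all tested genes were called higher in FC and 0.0444% lower in FC, and none had an unadjusted p under 0.05 in this edgeR test. None was called in FC against RT under any of the 12 other settings or without any single library. The estimates ran from -0.09 for Spry4 to 0.05 for Dusp6, and the 95% intervals of all 10 lay between -0.20 and 0.22. For Dusp1 the difference was -0.02 (interval -0.20 to 0.16), for Dusp5 0.04 (-0.14 to 0.22) and for Errfi1 0.00 (-0.08 to 0.08). Libraries of FC and RT that carry 1 number deviated together from their group means. With the number as a replicate block and the RUVs factors, the 22 genes called in this comparison became 82. With upper-quartile factors 0 genes were called, with and without the block. In each of these fits 0 regulators were called. The block also covered the CC libraries, which were not taken as pairs. The calls in 1 comparison alone of Dusp6, Spry1, Spry4 and Spred2 are therefore not shown to differ between FC and RT.

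Levels can be set side by side only per length, as RPKM, the reads per exon length and library total. In CC, Spred2 had 24.4 ± 1.23 RPKM, Spry2 21.3 ± 2.25, Dusp6 19.4 ± 1.31 and Spred1 16.4 ± 1.63 (SD, n = 5). Errfi1 followed at 10.7 ± 1.02 RPKM, Dusp5 at 7.96 ± 1.50, Dusp4 at 7.79 ± 0.823, Dusp1 at 4.84 ± 0.248, Spry1 at 3.99 ± 0.299 and Spry4 at 3.80 ± 0.295. Neighbours in this order had overlapping ranges for Spred2 and Spry2, Spry2 and Dusp6, Dusp5 and Dusp4, and Spry1 and Spry4. The regulators with the largest rises, Dusp1 and Dusp5, stood in the lower part of the order in CC. In RPKM, Dusp1 reached 8.95 ± 1.58 in FC and 9.21 ± 0.457 in RT. Over all 15 libraries the regulators lay between percentile 47.3 (Spry4) and 83.8 (Spred2) of the tested genes.

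The rest of the pathway was read from lists of genes by role. Of the 8 other dual-specificity phosphatases of MAP kinases that were tested, none was called in FC or in RT against CC, and their log2 fold changes ran from -0.34 to 0.05 in FC against CC and from -0.34 to 0.04 in RT against CC, with 3 and 0 at an unadjusted edgeR p under 0.05. Of 13 other brakes on receptors and Ras, Cbl, a ubiquitin ligase of activated receptors, was higher in FC against CC (0.39, SE 0.08, edgeR FDR 4.57e-05), and none was called in RT against CC, with 0 at an unadjusted p under 0.05. Scaled Cbl counts spanned 42.6 to 770.6 in FC libraries, against 250.8 to 653.7 in CC libraries, so its groups overlapped. None of 13 receptors and none of 8 ligands was called in FC or in RT against CC, with 5 and 1 at an unadjusted edgeR p under 0.05 in FC against CC and 2 and 1 in RT against CC.

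Among 25 adaptors, Ras proteins and kinases from RAF to ERK, the called genes were Ksr2, a scaffold of the cascade (0.35, SE 0.09, edgeR FDR 0.00608), and Shc3, a neuronal adaptor (0.24, SE 0.06, edgeR FDR 0.00662). Both were called higher in FC against CC, and none was called in RT against CC, with 2 at an unadjusted p under 0.05. Without the RUVs factors, scaled Ksr2 counts averaged 223.2 ± 117 in FC and 199.9 ± 65.2 in CC (SD, n = 5 each). Scaled Shc3 counts averaged 443.5 ± 166 in FC and 436.7 ± 130 in CC. For both genes the FC and CC ranges overlapped. Ksr2 counts spanned 37.5 to 333.3 in FC and 93.9 to 263 in CC, and Shc3 counts 171.3 to 589.5 and 276.6 to 637.1. The lowest FC library of each gene lay below every CC library and lowered the FC mean. Among 11 JNK and p38 kinases and their activators, Map2k3, which activates p38, was higher (0.19, edgeR FDR 0.00654) and Mapk11, the beta form of p38, was called at a log2 fold change of -0.16 (edgeR FDR 0.00251) in FC against CC, and none was called in RT against CC, with 4 at an unadjusted p under 0.05. The scaled Mapk11 counts, without the RUVs factors, averaged 2031 ± 766 in FC and 1973 ± 50.8 in CC (SD, n = 5 each). The highest FC library, at 3392, lay above every CC library (at most 2039) and raised the FC mean. The lowest FC library, at 1577, lay below every CC library (at least 1908). These means alone therefore do not settle the direction of the scaled Mapk11 counts. The 16 tested ERK-induced genes outside the regulators gave 6 calls in each comparison, all higher, with medians of -0.03 in FC and 0.04 in RT against CC. Fos and Arc are given above, Egr2 and Junb, transcription factors of the early response, were 2.66 and 0.98 log2 units higher in FC than in CC and 2.23 and 0.89 higher in RT than in CC. Dusp1 is also known to be induced by glucocorticoids, and 4 of 12 glucocorticoid target genes were called higher in FC against CC and 5 in RT against CC. Nfkbia, the inhibitor of NF-kB, Ddit4, an inhibitor of mTOR, Sgk1, a kinase, and Per1, a clock gene, were higher by 0.31, 0.42, 0.32 and 0.47 in FC and by 0.46, 0.43, 0.37 and 0.35 in RT over CC on the log2 scale, and Tsc22d3 was the fifth gene called in RT against CC. The part of each inducer in the Dusp1 values was not tested.

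Cell type markers other than those of the choroid plexus showed few calls. Of the endothelial, astrocyte, oligodendrocyte, microglial and excitatory neuron markers none was called in FC or in RT against CC in this edgeR test, with 0 to 4 markers of each list at an unadjusted p under 0.05 in FC and 0 to 5 in RT against CC, and of 8 meningeal markers 1, Col1a1, was called lower in FC against CC. Choroid plexus markers gave 11 calls of 12 in FC and 2 in RT against CC (Ttr and Mfrp), all higher. Without FC5 and FC8 the regulators called in FC against CC numbered 5 again, and Dusp1, Dusp5, Dusp6 and Errfi1 were among them. The Dusp1 estimate was 0.69 in that fit and 0.90 in the main one. The choroid plexus scores of FC3, FC6 and FC7 were -0.169, -0.192 and 0.141, above the highest in CC, -0.735. Leaving out FC5 and FC8 therefore did not remove the group difference in these markers, and its part in the calls was not tested.

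**Figure D4:**
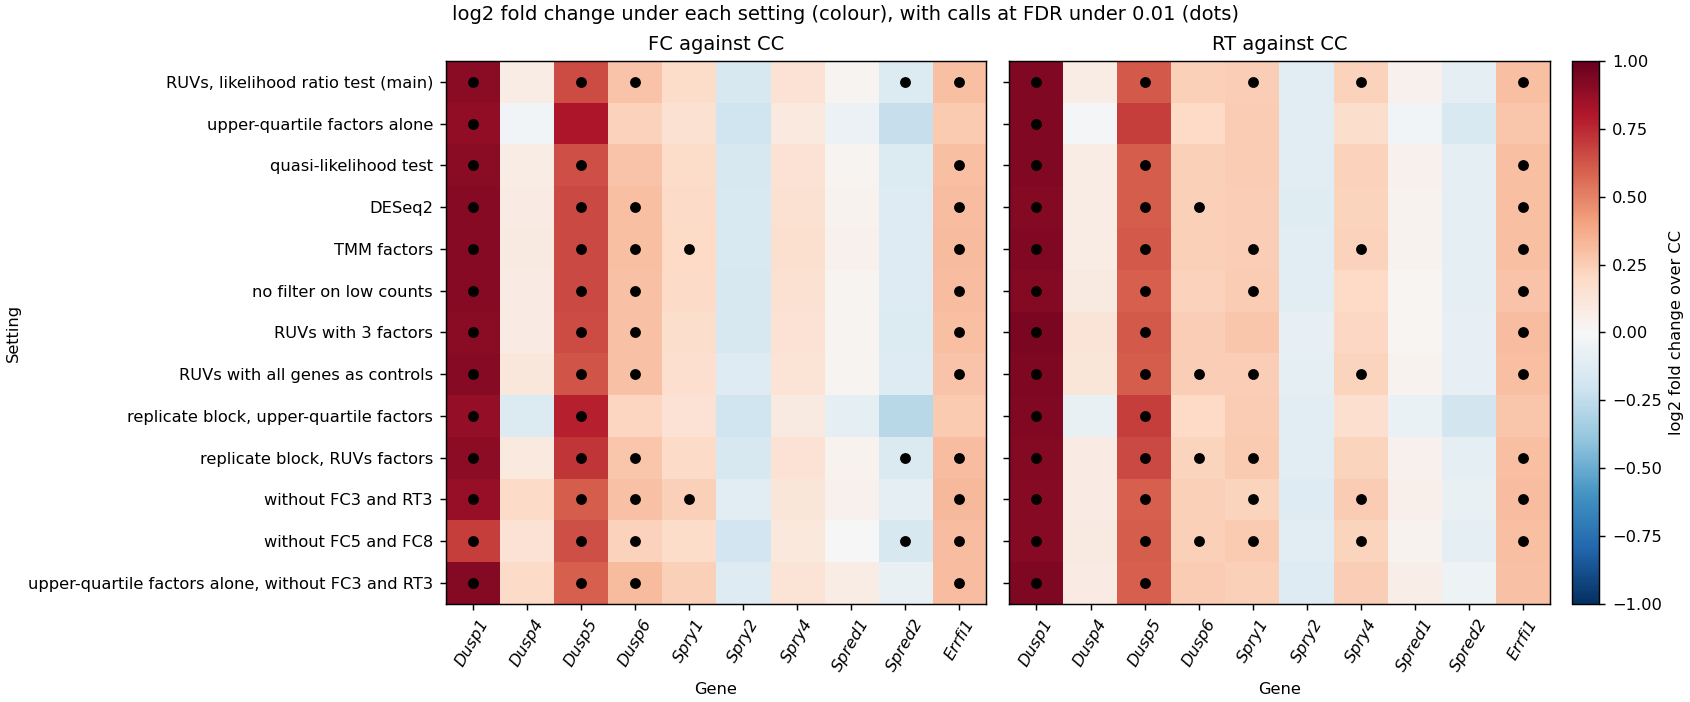
Colour gives the log2 fold change over CC of each regulator (columns) under the main model and 12 other settings (rows), for FC (left) and RT (right), and a dot marks an edgeR or DESeq2 FDR under 0.01. Dusp1 carries a dot in every row of both panels, Dusp5 in all but the row with upper-quartile factors alone, and Errfi1 lacks dots in the rows with upper-quartile factors and 15 libraries and, for RT, in the last row.

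How far each call depends on the model can be read from the plot of settings. With upper-quartile scaling alone on 15 libraries, Dusp1 was the only regulator called, in both comparisons, and the biological coefficient of variation was 0.203, against 0.0451 with RUVs. When FC3 and RT3 were left out, upper-quartile scaling alone gave a coefficient of 0.0746 and called Dusp1, Dusp5, Dusp6 and Errfi1 in FC against CC and Dusp1 and Dusp5 in RT against CC, without any factor of unwanted variation. The quasi-likelihood test of edgeR with the RUVs factors called Dusp1, Dusp5 and Errfi1 in both comparisons.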

How the data were processed

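Poly(A)-selected hippocampal RNA in 15 libraries was sequenced as paired-end reads. Per the labels, the authors used GSNAP for alignment, mm9 as the genome and HTSeq 0.6.1 for counts per gene. The deposited values are raw counts with no normalization. Whether the counting used strand is not given in the sources used here. Symbols and positions came from the matching annotation (Ensembl release 65), and all 37310 identifiers matched.

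The filter kept 18008 genes, those above 10 reads in over 5 libraries. Counts were scaled by the upper quartile, 5 RUVs factors were estimated with the study's 625 negative control genes, and all 15 libraries entered 1 negative binomial model in edgeR 4.0.16 (R 4.3.3) with a likelihood ratio test and Benjamini-Hochberg adjustment at 0.01. This follows the study's methods, so the likelihood ratio test is the main test and the quasi-likelihood test an alternative. SE is the absolute log2 fold change divided by the root of the test statistic. The other settings were upper-quartile or TMM factors, the quasi-likelihood test, DESeq2 1.42.0, no filter, RUVs with 3 factors or all genes as controls, a replicate block, and leaving out libraries. Upper-quartile scaling without FC3 and RT3 was added after the data were seen.

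The members and lists were chosen with earlier results of these data known. Genes named are all members, Arc and Fos, up to 4 called genes of each pathway list with the smallest p, and the choroid plexus gene with the most reads (Enpp2), because that list moved with the groups. Ttr, C1qa and P2ry12 were added after their values were seen. A called gene of 1 pathway list is not reported here. Libraries of FC and RT that carry 1 number had correlated deviations from their group means. Over 18008 genes their r was 0.254 to 0.87 (5 of 5 pairs over 0.1). For other numbers the median r was 0.14 and the highest 0.512, which is above the lowest r of a matching number. FC and RT libraries of 1 number were taken as pairs. For libraries of 1 number the ranges of r were -0.313 to 0.241 for FC and CC and -0.326 to 0.0937 for RT and CC. These were not taken as pairs. Counts of replicate libraries differed by more than sampling noise.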

Additional observations from a re-analysis of the deposited data

Results flagged for a closer look

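In groups of 5 libraries, a library was singled out when its gap to the nearest other library exceeded 0.71 of the group's range. Of the 30 groups formed by the 10 regulators and FC, RT and CC, chance would single out about 1 in 20. All 3 cases were FC3. The Dusp5 scaled count of 2748 in FC3 stood above 1488 to 1554 in the other FC libraries, with a gap of 0.948 of the range. The Spred1 scaled count of 3398 in FC3 stood below 5718 to 6473, with a gap of 0.755. The Spred2 scaled count of 2682 in FC3 stood below 5136 to 5766, with a gap of 0.796.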

How the results depend on the processing

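No called log2 fold change of a regulator took the other sign under any setting tried. The regulators called in FC against CC numbered 5, and numbered 1 with upper-quartile factors alone, 3 with the quasi-likelihood test and 2 with the replicate block on upper-quartile factors. In RT against CC they numbered 5, and 1, 3 and 2 in the same settings, 3 with 3 RUVs factors and 2 with upper-quartile factors without FC3 and RT3. Leaving out single libraries gave counts within 1.5 times the main count. All genes called in FC against CC numbered 403, and 34 with upper-quartile factors alone, 98 with the quasi-likelihood test, 164 with DESeq2, 176 with 3 RUVs factors, 45 with the replicate block on upper-quartile factors, 219 without FC5 and FC8, 110 with upper-quartile factors without FC3 and RT3, and 249 to 653 without single libraries, lowest without FC5 and highest without CC8. In RT against CC they numbered 182, and 19, 66, 85 and 27 with upper-quartile factors alone, the quasi-likelihood test, DESeq2 and the replicate block on upper-quartile factors, 66 with upper-quartile factors without FC3 and RT3, and 145 to 276 without single libraries, highest without CC8. In FC against RT they numbered 22, and 0 with upper-quartile factors alone, with the quasi-likelihood test, with the replicate block on upper-quartile factors and with upper-quartile factors without FC3 and RT3, 4 with DESeq2, 1 with 3 RUVs factors, 39 with all genes as controls, 82 with the replicate block and RUVs factors, 62 without FC3 and RT3, 50 without FC5 and FC8, and 11 to 92 without single libraries, lowest without FC5, highest without RT8, and above 1.5 times 22 also without CC6, CC7, CC8, FC6, FC7, FC8, RT5 or RT6. The pairing by number rests on FC and RT libraries alone, of which 8 of 10 were nearest to their own number. Of the 10 libraries in FC and CC, 0 were nearest to their own number, and of those in RT and CC, 2. With the replicate block and RUVs factors, Dusp6 was called in RT against CC (log2 fold change 0.23, edgeR FDR 6.15e-04) and Spry4 was not (0.22, edgeR FDR 0.0213). The cause of these shifts was not tested. With 5 libraries per group, p values measure the spread between these libraries only. In the main model they measure what is left of it after the 5 RUVs factors, with 7 residual degrees of freedom. Those factors were estimated from differences between libraries of the same group. FC3, RT3 and the choroid plexus markers limit the smaller changes: the calls of Dusp6, Spry1, Spry4 and Spred2 changed with the settings, as given above. Errfi1 was called under 10 of 12 other settings in FC against CC and 9 of 12 in RT against CC. Dusp5 was called under 11 of 12 in each comparison. The calls of Dusp1 did not change under any setting tried.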
